A study of Ovis aries with 20 samples.

Results

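The cell cycle genes CDK2, CCND3, PCNA, CDK1, CCNA2 and HMMR were measured in the hearts of newborn lambs from ewes infused with cortisol or vehicle. All probes that the scanner files name for these 6 genes were taken, which gave 8 of the 15008 probes on the array, and each gene was led by its brightest probe over 20 arrays. The groups were septum of cortisol lambs, septum of control lambs, left ventricle (LV) of cortisol lambs and LV of control lambs, with 5 arrays each. Cortisol ewes received 1 mg/kg per day from about gestation day 115 to birth, control ewes received vehicle over the same time, all lambs were singletons, and every title carries the word telemetry. Hearts were taken between 10 and 480 minutes after birth, and the time for each lamb is not among the labels. The septum and LV arrays of the same treatment and number were taken as 1 lamb, because they deviated together, so there were 10 lambs. Whole tissue was used, so a value is a mean over heart muscle and every other cell in the piece.

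Cells enter division in ordered steps. D-type cyclins such as cyclin D3 and the kinase CDK2 act from G1 into S phase, where PCNA, a ring-shaped clamp, holds DNA polymerase on the template. Cyclin A2 works with CDK2 in S phase and with CDK1 into G2, CDK1 with its B-type cyclins starts mitosis, and HMMR is a hyaluronan-binding protein that also acts at the mitotic spindle. In the mammalian heart most muscle cells divide before birth and withdraw from the cycle around or soon after it, while fibroblasts, endothelial cells and blood cells can go on dividing. CDK2, CCND3 and PCNA are described here as the G1/S genes, and CDK1, CCNA2 and HMMR as the G2/M genes.

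The arrays had 57.9% to 72.1% of spots well above background. Heart muscle was represented by 4 of 23 listed markers. MYH7, a slow myosin heavy chain, was well above background on 20 of 20 arrays, and CRYAB, MB and TPM1 were so on each of the 15, 16 and 15 arrays where the spot was kept. The arrays were spread over 4 slides. Septum alone was on slide 1 and LV alone on slide 3, each with 3 cortisol and 3 control arrays, while slide 2 mixed 4 septum with 3 LV arrays and slide 4 carried 1 LV array. Slide is therefore largely confounded with region.

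Each value is the brightness of a probe of 60 bases, and the probes of CDK2, PCNA, CDK1 and CCNA2 show which stretch of transcript it reports. The sequences are printed as the array design gives them. Capitals mark the 30 bases that the PCNA probes share, which stand at the start of the brighter probe and at the end of the dimmer one.
CDK2: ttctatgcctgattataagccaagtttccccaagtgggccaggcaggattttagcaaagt
PCNA, brighter probe: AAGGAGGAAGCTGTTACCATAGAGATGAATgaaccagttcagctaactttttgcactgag
PCNA, dimmer probe: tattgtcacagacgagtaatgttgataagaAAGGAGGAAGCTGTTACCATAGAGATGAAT
CDK1: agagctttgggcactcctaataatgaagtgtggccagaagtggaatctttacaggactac
CCNA2: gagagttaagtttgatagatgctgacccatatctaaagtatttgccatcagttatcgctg
CDK1 is listed in the files under its older name CDC2, and HMMR under RHAMM. The HMMR probes start 60 bases apart on the same expressed sequence tag and so do not overlap.

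Levels are log2 intensity relative to the 75th percentile of the array. Levels of different probes are not set against each other, since probes differ in how brightly they bind. The G1/S genes were well above background on 20 of 20 arrays. CDK1 and CCNA2 were each so on 13 of 20. HMMR was so on 20 of 20 by its leading probe but on 2 of 20 by the other. The arrays themselves differed in brightness, with a 75th percentile from 154.6 to 440.8 in septum and from 99.2 to 401.7 in LV. Spots well above background made up 64% to 72.1% in septum and 57.9% to 70.9% in LV. The part of array brightness in the detection of the dim probes by group was not tested.

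CDK2, the kinase that drives entry into S phase, stood in cortisol septum at -0.66, -1.27, -1.30, -0.31 and -0.69 in lambs 1 to 5, against -0.42, -0.01, -0.82, -0.21 and -0.64 in control septum. Lambs 2 and 3 of the cortisol group were the lowest, and the groups overlapped. In cortisol LV it stood at -0.26, -0.73, -0.66, 0.30 and -0.61, against -0.02, 0.26, -0.48, 0.36 and -0.38 in control LV. Cortisol lamb 4 lay among the control values, and the other cortisol lambs among or below them. The group means ran from -0.85 ± 0.43 in cortisol septum through -0.42 ± 0.32 in control septum and -0.39 ± 0.43 in cortisol LV to -0.05 ± 0.37 in control LV (SD, n = 5). Control septum and cortisol LV, neighbours in that order, stood far closer than their spread, and the other steps were no larger than about the SD.

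CCND3 encodes cyclin D3, a partner of CDK4 and CDK6 in G1. It stood at 0.37, 0.33, -0.82, -0.72 and 0.29 in cortisol septum, against 0.02, 0.31, 0.40, -0.04 and 0.23 in control septum. In cortisol LV it stood at 0.57, 0.46, -0.39, -0.82 and 0.09, against -0.08, 0.39, 0.04, -0.20 and 0.06 in control LV. Cortisol lambs 3 and 4 were the 2 lowest of their group in both regions, and cortisol lambs 1 and 2 the 2 highest. The SD was 0.60 in cortisol septum and 0.19 in control septum, and 0.59 in cortisol LV and 0.22 in control LV. A wider cortisol group was also the rule for the whole array, with a median SD over probes of 0.44 in cortisol septum and 0.28 in control septum, and of 0.48 in cortisol LV and 0.31 in control LV. The 4 group means lay between -0.11 and 0.18, closer than the spread of the cortisol groups.

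PCNA, the replication clamp, stood by its leading probe at 0.21, 0.10, -0.16, 0.53 and -0.11 in cortisol septum, against -0.23, 0.47, 0.20, 1.02 and 0.16 in control septum. In cortisol LV it stood at 0.00, 0.37, -0.50, 0.19 and -0.10, against -0.23, 0.64, 0.11, 0.73 and 0.03 in control LV. Control lambs 2 and 4 were the 2 highest of their group in both regions, and control lamb 1 the lowest. The group means were 0.12 ± 0.28 in cortisol septum, 0.32 ± 0.46 in control septum, -0.01 ± 0.33 in cortisol LV and 0.26 ± 0.41 in control LV (SD, n = 5), and no neighbouring means differed beyond their SD. The dimmer probe, also well above background on 20 of 20 arrays, followed the leading one with r = 0.785 over 20 arrays after the group means were subtracted. This r is a description, since each lamb gives 2 arrays and both probes read the same hybridisation.

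CDK1, the kinase that starts mitosis, was dim. In cortisol septum it stood at -2.91, -3.33, -3.65, -3.43 and -4.90, against -3.76, -2.28, -3.26, -1.63 and -3.67 in control septum. In cortisol LV it stood at -5.82, -3.61, -4.37, -3.07 and -4.67, against -3.78, -1.86, -3.95, -1.80 and -4.52 in control LV. Control lambs 2 and 4 were the 2 highest of all lambs in both regions. Their septum arrays also had the highest 75th percentiles of control septum, 440.8 and 320.7. Their LV arrays had 196.4 and 265.6, and control lamb 5 lay between them at 239.1. CDK1 was well above background on 4 of 5 arrays in cortisol septum and 5 of 5 in control septum, and on 2 of 5 in cortisol LV and 2 of 5 in control LV. The group means were -3.64 ± 0.75 in cortisol septum, -2.92 ± 0.93 in control septum, -4.31 ± 1.06 in cortisol LV and -3.18 ± 1.26 in control LV (SD, n = 5).

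CCNA2 encodes cyclin A2, the partner of CDK2 and CDK1. It stood at -3.01, -3.38, -4.88, -2.99 and -5.13 in cortisol septum, against -3.77, -1.67, -3.38, -1.51 and -3.29 in control septum. In cortisol LV it stood at -5.05, -2.92, -5.32, -3.52 and -5.06, against -4.01, -1.22, -3.76, -1.63 and -4.59 in control LV. The 2 highest values in each region were again those of control lambs 2 and 4, and cortisol lambs 3 and 5 gave the 2 lowest. CCNA2 was well above background on 3 of 5 arrays in cortisol septum and 5 of 5 in control septum, and on 2 of 5 in cortisol LV and 3 of 5 in control LV. Its group means were -3.88 ± 1.04 in cortisol septum, -2.73 ± 1.05 in control septum, -4.37 ± 1.08 in cortisol LV and -3.04 ± 1.51 in control LV (SD, n = 5). For CDK1 and CCNA2 the order of the means was the same, control septum, control LV, cortisol septum and cortisol LV, and neighbours in it lay within their SD.

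HMMR stood by its leading probe at 0.20, -0.30, -0.27, -0.97 and -1.29 in cortisol septum, against -0.90, 0.19, -1.29, -0.01 and -0.85 in control septum. In cortisol LV it stood at -0.43, -0.24, -0.32, -1.0 and -1.51, against -0.63, 0.35, -0.80, 0.03 and -1.0 in control LV. Among control lambs, numbers 2 and 4 were again the highest in both regions, and among cortisol lambs numbers 4 and 5 were the lowest. The 4 group means lay between -0.70 and -0.41, closer than any group's SD. The other HMMR probe was well above background only in control lamb 4, in septum and in LV, and in 0 of 5 arrays of each cortisol group, so it was not tested. It followed the leading probe with r = 0.178 over 20 arrays after the group means were subtracted.

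**Figure D1:**
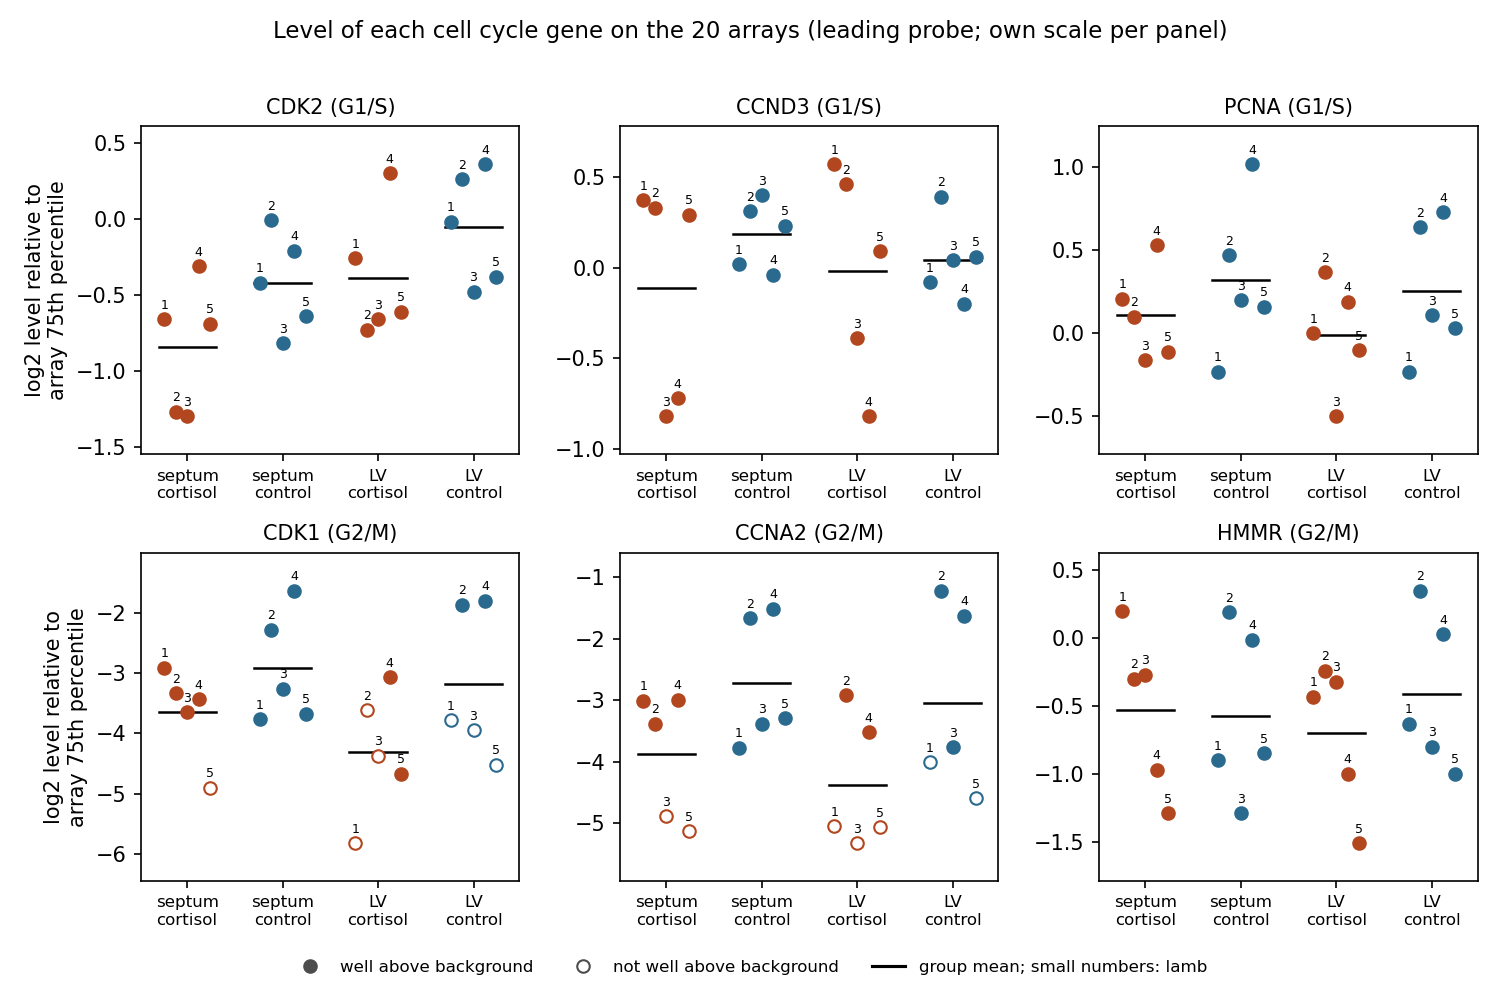
Log2 level of the leading probe of each gene relative to the array's 75th percentile (vertical axis, own scale per panel) in the 4 groups, with 1 point per array, the lamb number above it and a bar at the group mean. Filled points were well above background, which held for 20 of 20 arrays of CDK2, CCND3, PCNA and HMMR and 13 of 20 of CDK1 and CCNA2, and control lambs 2 and 4 are the highest control points of CDK1, CCNA2, HMMR and PCNA in both regions.

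The first comparison asked whether raised maternal cortisol altered these genes in the newborn heart. None of the 6 genes passed the test in either region, and the groups overlapped for each, where 0.386% of all tested probes in septum and 0.736% in LV had groups that did not. Differences are cortisol minus control on the log2 scale with the standard error of limma's fit and p-values adjusted by Benjamini-Hochberg over all probes tested. The 2 largest estimates were those of CCNA2 and CDK1, both below 0. In septum the adjusted p was under 0.05 for 0 of 10369 probes (0%), and in LV for 0 of 9787 probes (0%), so the 6 genes were no exception. At an unadjusted p under 0.05 limma counted 385 probes in septum (3.71%) and 508 in LV (5.19%), and none of these 6 genes was among them.

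CCNA2 differed by -1.15 ± 0.58 in septum, with 5 of 5 cortisol lambs below the control mean, an unadjusted p of 0.0706 and a limma adjusted p of 0.818. The 95% interval ran from -2.42 to 0.11, that is from 0.186 to 1.08 times the control level. Control lambs 1, 3 and 5 also lay below the control mean, and the medians were -3.38 in cortisol septum and -3.29 in control septum. Leaving out 1 array, the septum difference ran from -1.42 to -0.84. In LV CCNA2 differed by -1.33 ± 0.71, with 4 of 5 cortisol lambs below the control mean, an unadjusted p of 0.0878 and a limma adjusted p of 0.877. CDK1 differed by -0.72 ± 0.47 in septum (limma adjusted p = 0.818, 4 of 5 below the control mean), and this ran from -0.93 without control lamb 1 to -0.40 without control lamb 4. In LV CDK1 was well above background on 4 of 10 arrays and was not tested, and its raw means differed by -1.13. With normexp background correction, which compresses dim probes, the CCNA2 differences came to -0.12 in septum and -0.30 in LV, and those of CDK1 to -0.02 in septum and -0.16 in LV. Fewer cells of a type and less RNA per cell cannot be told apart in whole tissue.

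The G1/S genes gave smaller estimates. CDK2 differed by -0.43 ± 0.24 in septum (limma adjusted p = 0.818) and by -0.34 ± 0.25 in LV (limma adjusted p = 0.877), with 4 of 5 cortisol lambs below the control mean in each. The CDK2 estimate in septum was -0.86 on slide 1 alone (3 cortisol and 3 control arrays) and 0.23 on slide 2 alone (2 and 2). Its direction was not shared by the slides, though slide 2 gives few arrays. In LV it was -0.75 on slide 3 (3 cortisol and 3 control arrays) and -0.18 on slide 2 (1 cortisol and 2 control arrays). PCNA differed by -0.21 ± 0.24 in septum and -0.26 ± 0.24 in LV by the leading probe. Leaving out 1 array, the septum value ran from -0.35 without control lamb 1 to -0.03 without control lamb 4. By the dimmer probe it differed by -0.05 ± 0.27 in septum and 0.11 ± 0.27 in LV, so the PCNA probes had opposite signs in LV, each within its error. CCND3 differed by -0.29 ± 0.27 in septum and -0.06 ± 0.27 in LV. HMMR, of the G2/M genes, differed by 0.04 ± 0.35 in septum and -0.29 ± 0.33 in LV, with 3 of 5 cortisol lambs above the control mean in septum and 2 of 5 in LV. The 95% intervals of CDK2, CCND3 and PCNA (leading probe) all lay between 0.519 and 1.45 times the control level in both regions, so larger shifts of those probes lie outside them.

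Averaging the septum and LV arrays of each lamb changed no call. CCNA2 differed by -1.24 ± 0.61 (unadjusted p = 0.065) and CDK1 by -0.92 ± 0.49 (unadjusted p = 0.0828), each with a limma adjusted p of 0.812. For both genes 5 of 5 cortisol lambs lay below the control mean, and so did control lambs 1, 3 and 5. CDK2 differed by -0.38 ± 0.23, PCNA by -0.24 ± 0.22, CCND3 by -0.18 ± 0.26 and HMMR by -0.12 ± 0.33. Limma's adjusted p was under 0.05 for 0 of 10069 probes (0%), and the unadjusted p for 516 (5.12%). Whether the cortisol difference itself differed between septum and LV was tested over 20 arrays. It did not pass for any of the 6 genes, with estimates of septum minus LV between -0.23 ± 0.39 for CCND3 and 0.40 ± 0.84 for CDK1 and a limma adjusted p of 1, and 0 of 10069 probes passed (0%) while 38 had an unadjusted p under 0.05 (0.377%). For HMMR the estimate was 0.33 ± 0.50. That fit takes the 20 arrays as independent, although arrays of the same lamb were correlated (consensus correlation 0.683), which widens its errors. With lamb as a random replicate block the HMMR estimate was 0.33 ± 0.24 (unadjusted p = 0.184) and the CCND3 one -0.23 ± 0.19, with a limma adjusted p of 0.998 for each. That fit passed 0 of 10069 probes, and 403 had an unadjusted p under 0.05.

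CDK1 and CCNA2 varied widely among lambs of the same group. Their SD within groups, pooled over the 4 groups, was 1.19 for CCNA2 and 1.02 for CDK1, larger than in 97.3% and 95.4% of tested probes, against a median of 0.42. It was 0.59 for HMMR, 0.44 for CCND3, 0.39 for CDK2 and 0.38 for PCNA. Signal near background, as on the arrays where these probes were not well above it, can widen the spread on the log2 scale. The deviations were shared by other transcripts. After the group means were subtracted, CCNA2 was most like TYMS, the enzyme that makes thymidylate for DNA (r = 0.954), CCNB1, the mitotic cyclin B1 (r = 0.951), and CDK1 (r = 0.893), among 529 named genes over 20 arrays. CCNB1 was well above background on 20 of 20 arrays. TYMS was so on only 2 of 5 arrays in each LV group, 3 of 5 in cortisol septum and 5 of 5 in control septum.

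CDK1 was most like CCNB1 (r = 0.903), CCNA2 (r = 0.893) and TYMS (r = 0.874). PCNA was most like CCNA2 (r = 0.877), TYMS (r = 0.862) and AURKA, the mitotic kinase Aurora A (r = 0.855, well above background on 11 of 20 arrays). CDK1, CCNA2 and PCNA thus had cell cycle genes as all 3 of their nearest neighbours. The other members did not. HMMR was most like PPY (r = 0.809), FST, the activin-binding protein follistatin (r = 0.783), and MMP14, a membrane-bound matrix protease (r = 0.768), and its nearest cell cycle gene was CCNB1 in place 13 (r = 0.706). Among the genes most like CDK2 were FLT3LG (r = 0.776) and SMPD1 (r = 0.773), with the histone H2AZ1 in place 9 (r = 0.71). CCND3 was most like TLR6 (r = 0.755), PTGDS (r = 0.746) and SHMT1 (r = 0.716), and its r with CDK1, CCNA2 and PCNA lay between -0.237 and 0.052. These correlations have no p, because the 20 arrays come from 10 lambs and share hybridisation and scaling.

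**Figure D2:**
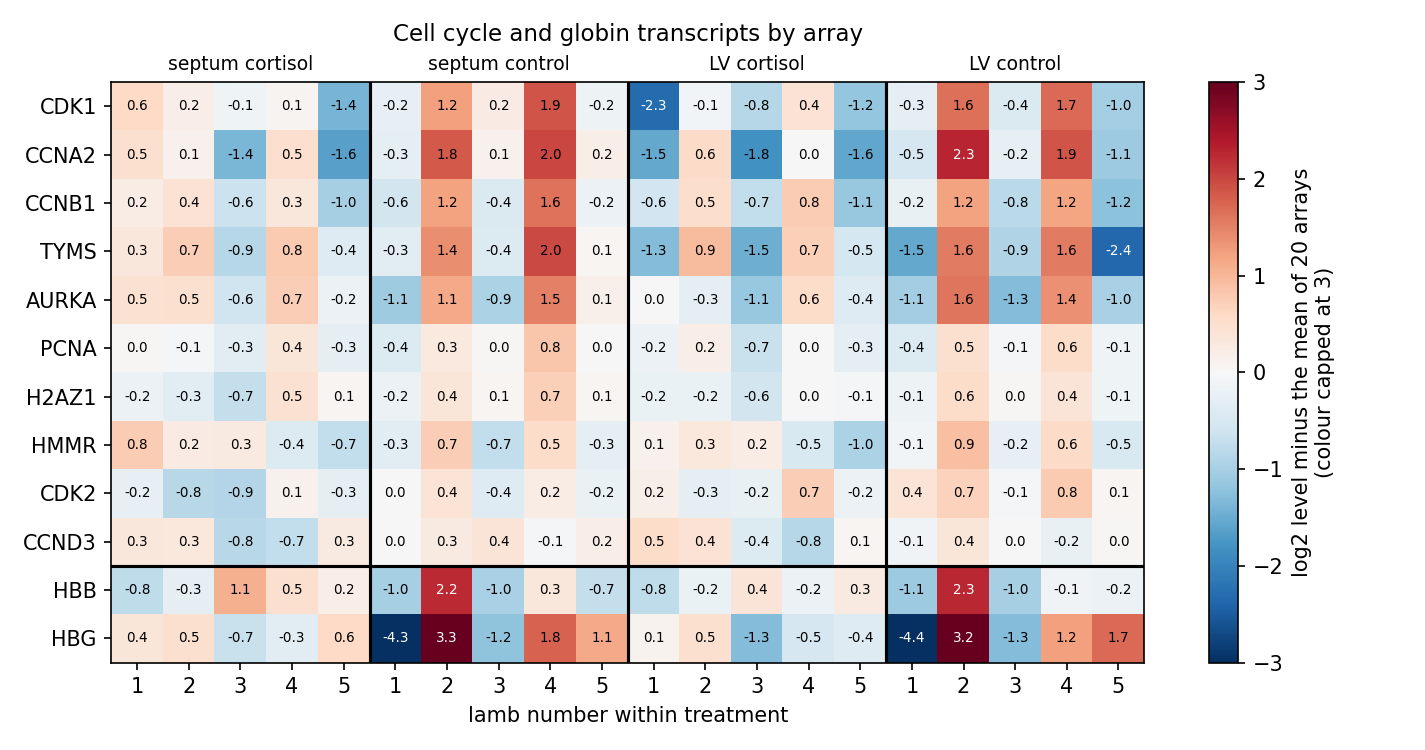
Log2 level minus the gene's mean over 20 arrays (colour, capped at 3, with the value in each cell) for 10 cell cycle genes and the globins HBB and HBG, with 1 column per array ordered by group and lamb. Control lambs 2 and 4 stand high in CDK1, CCNA2, CCNB1, TYMS and AURKA in septum and in LV, and cortisol lamb 5 stands low in CDK1, CCNA2 and CCNB1 in both. HBG is far below its mean in control lamb 1, where it was not well above background.

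Control lamb 2 also stood apart in blood transcripts. The red cell marker level is the mean of HBB and HBG, the beta and gamma globins, after each gene's mean is subtracted (2 of 16 listed markers passed the filter, and AHSP, a globin chaperone, was dim). It ran from -0.20 to 0.41 in cortisol septum and from -2.63 to 2.75 in control septum, and from -0.45 to 0.14 in cortisol LV and from -2.76 to 2.74 in control LV. The highest values were those of control lamb 2 and the lowest those of control lamb 1. In control lamb 1 HBG stood at -5.86 in septum and -6 in LV, not well above background in either. Its HBB, 3.66 in septum and 3.56 in LV, was close to that of control lamb 3, 3.66 in each. Control lamb 4 stood at 1.05 in septum and 0.55 in LV. Control lamb 5 stood at 0.22 in septum and 0.76 in LV, and had the lowest CCNA2 (-4.59) and CDK1 (-4.52) of control LV. In LV it was above control lamb 4 by HBG (0.12 against -0.36) but not by HBB (4.47 against 4.53). Over 20 arrays, after group means were subtracted, the red cell marker level had r = 0.612 with PCNA, 0.553 with CCNA2, 0.487 with HMMR and 0.46 with CDK1. With CDK2 its r was 0.298 and with CCND3 0.164, all given as a description. The r of each globin alone is not reported here. The neutrophil list rested on 1 of 12 markers and reached 4.64 in septum and 4.94 in LV of control lamb 2, and was below its mean in control lamb 4 at -1.71 in septum and -1.49 in LV. Cortisol lamb 3 was nearly as high, at 4.13 in septum and 3.61 in LV, and had the highest AHSP of its region in each, -0.81 in septum and -1.31 in LV. Its red cell marker level was 0.19 in septum and -0.45 in LV, the lowest of cortisol LV, but the globins went opposite ways. HBB was the highest of its group in each region, 5.71 in septum and 5.04 in LV. HBG was the lowest, -2.25 in septum and -2.88 in LV. The CCNA2 of cortisol lamb 3 was among the lowest, at -4.88 in septum and -5.32 in LV.

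Of the heart muscle markers only MYH7 was kept on all 20 arrays, so it stands alone here, with each value taken minus its mean over 20 arrays. Its r was -0.653 with PCNA, -0.565 with CDK2, -0.52 with CDK1 and -0.494 with CCNA2, but 0.0244 with HMMR and 0.447 with CCND3. Negative r was not particular to MYH7. The endothelial level over 4 of 12 markers had r = -0.474 with PCNA, -0.587 with CDK2, -0.247 with CDK1 and -0.36 with CCNA2. With HMMR it was 0.327 and with CCND3 0.13. MYH7 lay between -0.78 and 0.60 in cortisol septum and between -0.76 and 0.22 in control septum, and between -0.37 and 0.78 in cortisol LV and between -0.84 and 0.70 in control LV. The 2 lowest values of each control group were those of lambs 2 and 4, at -0.36 and -0.76 in septum and -0.49 and -0.84 in LV, and cortisol lamb 4 was the lowest of each cortisol group. The fibroblast level over 7 of 16 markers had r = 0.712 with HMMR and 0.239 with CCNA2. That level lay between -0.90 and 0.89 in cortisol septum and between -0.77 and -0.27 in control septum, and between -0.74 and 1.15 in cortisol LV and between -0.25 and 0.17 in control LV. The part of these cell types in the cell cycle values was not tested.

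The array names few other genes of the same steps. Of the G1/S and replication list without the 3 members, 5 of 68 genes could be named, CCND2, CDK4, MYC, RPA1 and TYMS, and of the G2/M list 5 of 64, ASPM, AURKA, CCNB1, H2AZ1 and HMGB2. Of the CDK inhibitors and genes of exit from the cycle 4 of 25 could be named, among them CDKN1B, CDKN1C and BTG1. None passed in either direction in any of the 5 comparisons, with septum against LV taken without the pairing of arrays by lamb. In septum 3 of 5 tested G1/S genes lay below 0, with a median of -0.04, and 2 of 4 tested G2/M genes did, with a median of -0.16, against 45.3% of all tested probes below 0 and a median of 0.03. In LV 3 of 4 G1/S genes lay below 0, with a median of -0.09, and 3 of 3 G2/M genes did, with a median of -0.26, against 50.9% of all tested probes and a median of -0.01. The inhibitors and exit genes had a median of 0.23 over 4 genes in septum and -0.04 over 3 in LV.

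Among these genes the 4 with the smallest unadjusted p in a cortisol comparison were BTG1, H2AZ1, MYC and CDKN1C. BTG1, an antiproliferative gene, averaged -4.42 ± 0.47 in cortisol septum and -4.84 ± 0.19 in control septum (SD, n = 5), a difference of 0.42 ± 0.23 with a limma adjusted p of 0.818. It was well above background on 3 of 5 arrays in cortisol septum and 4 of 5 in control septum. H2AZ1, a histone variant, averaged 2.27 ± 0.21 in cortisol LV and 2.62 ± 0.31 in control LV, a difference of -0.35 ± 0.19 with a limma adjusted p of 0.877, and in septum the difference was also -0.35 (SE 0.24). MYC, a transcription factor of growth, differed by -0.35 ± 0.30 in septum. CDKN1C, the CDK inhibitor p57, differed by 0.55 ± 0.53 in LV, and its cortisol values ran from 1.23 to 4.25 there, against 1.74 to 3.02 in control LV. CCNB1 and TYMS, the transcripts most like CCNA2, gave less of a difference than CCNA2 did. CCNB1 differed by -0.47 ± 0.47 in septum and -0.26 ± 0.54 in LV, and TYMS by -0.42 ± 0.51 in septum. Whether CCNA2 differed more than those genes was not tested.

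The list of growth signals to the cycle had 14 of 21 genes named and 13 tested. It holds insulin-like and fibroblast growth factors and their receptors, and also the transcription factors FOS, JUN and HAND1 and the glucocorticoid receptor NR3C1. None of the 13 passed the test. FOS gave the largest estimates, 1.47 ± 1.29 in septum and 1.67 ± 1.21 in LV. Limma's unadjusted p was under 0.05 for 0 of 13 in septum, against 3.71% of all tested probes, and for 2 of 13 in LV, against 5.19%. In septum 1 of 13 lay below 0, with a median of 0.27, against 45.3% of all tested probes, and in LV 2 of 13 did, with a median of 0.31, against 50.9%. Of the tested fibroblast markers, 7 of 7 lay above 0 in each region, with medians of 0.52 in septum and 0.50 in LV, none passing, and their part in the growth signal values was not tested. IGF1, insulin-like growth factor 1, was chosen after its values were seen, and differed by 0.89 ± 0.44 in septum (limma adjusted p = 0.818) and by 1.41 ± 0.42 in LV (unadjusted p = 0.00594, limma adjusted p = 0.877).

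**Figure D3:**
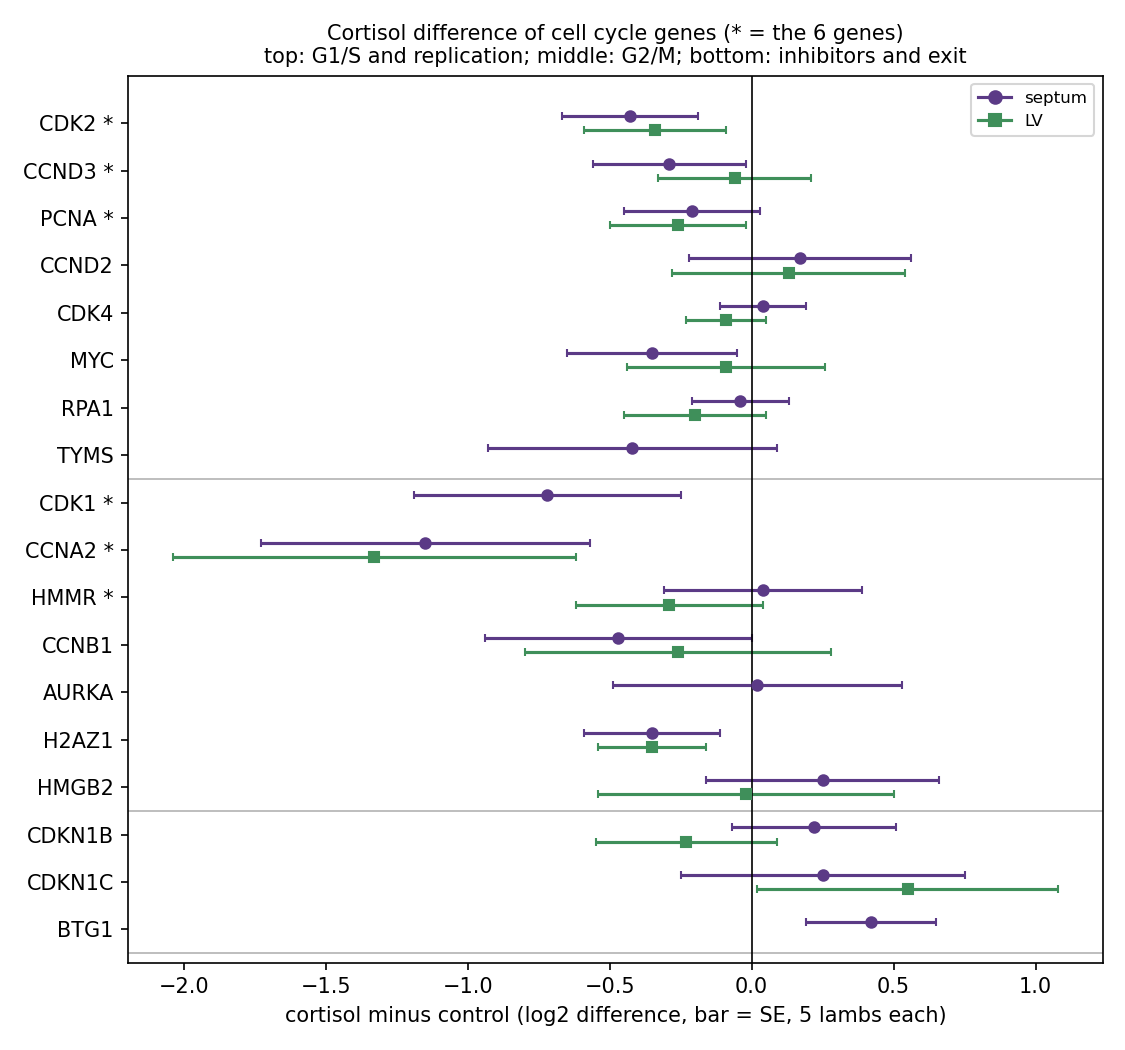
Cortisol minus control on the log2 scale (horizontal axis, bars are SE, 5 lambs per group) for the cell cycle genes named here that were tested in septum or LV, with the 6 genes starred. CCNA2 has the lowest estimates, -1.15 in septum and -1.33 in LV, with wide errors, and none of the differences passed the test.

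The next comparison set septum against LV over both treatments. With lamb as a block, 1 of the 6 genes passed, CDK2, which is near the 19.7% of all tested probes called that way, and CDK2 passed neither without the pairing nor with slide in the fit. CDK2 was lower in septum than in LV in 10 of 10 lambs, with septum minus LV running from -0.64 to -0.08. By lamb the difference was -0.40, -0.54, -0.64, -0.61 and -0.08 in cortisol lambs 1 to 5, and -0.40, -0.28, -0.34, -0.57 and -0.26 in control lambs 1 to 5. The mean level was -0.63 ± 0.42 in septum and -0.22 ± 0.42 in LV (SD, n = 10). Without the pairing of arrays by lamb the difference was -0.41 ± 0.17, 0.751 times the LV level, with an unadjusted p of 0.0277 and a limma adjusted p of 0.312, and did not pass. With lamb as a fixed block it was -0.41 ± 0.07 with a limma adjusted p of 0.00236, and with lamb as a random block -0.41 ± 0.09 with a limma adjusted p of 0.00262, so the call rests on the pairing. The share of probes called was 0.397% without the pairing (40 of 10069) and 19.7% with lamb as a fixed block (1988 of 10069), and 3.1% of probes were lower in septum in every lamb.

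The CDK2 value also moved with slide. In the 3 lambs with both arrays on slide 2 it was -0.08 in cortisol lamb 5, -0.34 in control lamb 3 and -0.26 in control lamb 5. With lamb and slide both in the fit, a choice made after seeing the data, it was -0.23 ± 0.10 with a limma adjusted p of 0.265. With slide as a block and no lamb term it was -0.03 ± 0.26, and among the 7 arrays of slide 2 it was -0.10 ± 0.17. For the other lambs region and slide cannot be told apart. The difference was -0.46 in cortisol lambs alone and -0.37 in control lambs alone.

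The other members did not pass with or without the pairing. CDK1 differed by 0.46 ± 0.42 (limma adjusted p = 0.723) and CCNA2 by 0.41 ± 0.49 (limma adjusted p = 0.808), each higher in septum in 7 of 10 lambs. Much of that came from cortisol lamb 1, where septum minus LV was 2.91 for CDK1 and 2.03 for CCNA2. Without that lamb the differences were 0.18 for CDK1 and 0.21 for CCNA2. Both of that lamb's LV values were not well above background. With normexp correction the CDK1 difference was -0.03 and that of CCNA2 0.03. PCNA differed by 0.10 ± 0.17, CCND3 by 0.03 ± 0.19 and HMMR by 0.00 ± 0.25, with septum above LV in 6, 6 and 5 of 10 lambs. CCNA2 and CDK1 gave limma adjusted p of 0.2 and 0.24 with lamb as a fixed block.

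Of the other cell cycle genes, CDK4, HMGB2 and CDKN1B were among those with the smallest unadjusted p between regions without the pairing. All were lower in septum and none passed in that fit. Their values with lamb as a block, the fit in which CDK2 passed, are not reported here. CDK4, the kinase partner of D-type cyclins, differed by -0.17 ± 0.09, HMGB2, a chromatin protein abundant in dividing cells, by -0.63 ± 0.35, and CDKN1B, the CDK inhibitor p27, by -0.30 ± 0.22. Of the growth signal list, 1 gene passed without the pairing, HAND1, a ventricular transcription factor named here because of its value. It averaged -2.19 ± 0.65 in septum and -0.79 ± 0.77 in LV, a difference of -1.40 ± 0.30 with a limma adjusted p of 0.0486. With slide as a block, and on slide 2 alone, no probe of the array passed, HAND1 included. Its estimates in those fits are not reported here.

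**Figure D4:**
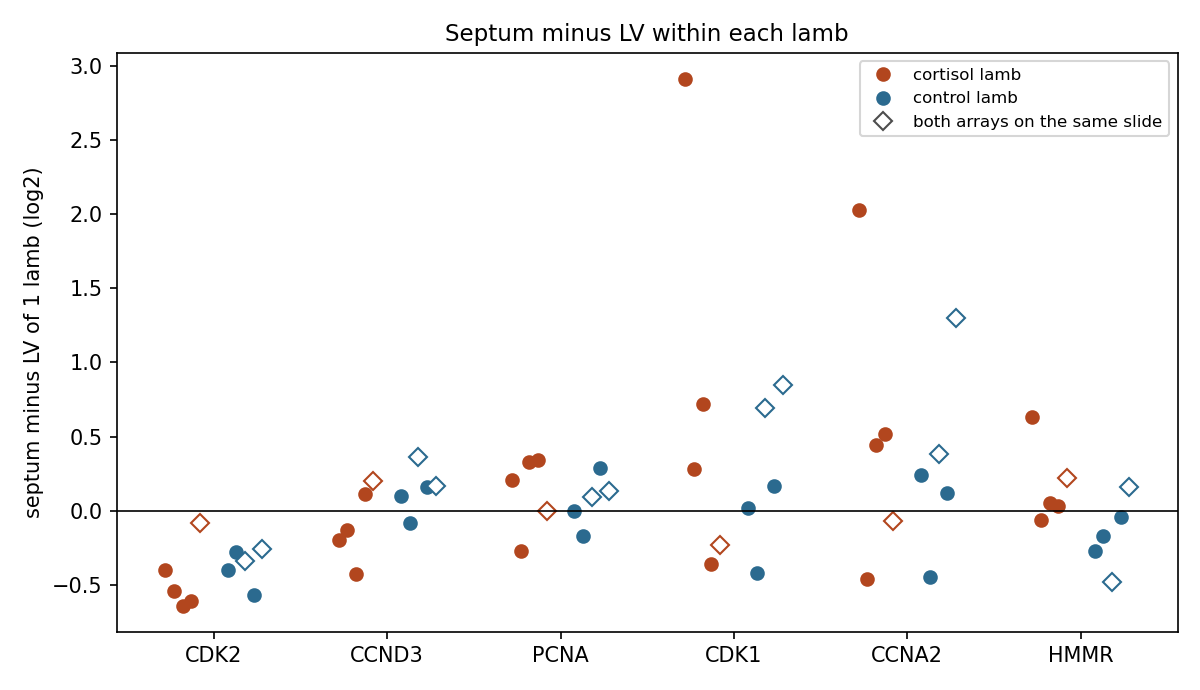
Septum minus LV on the log2 scale (vertical axis) for the leading probe of each gene, with 1 point per lamb, cortisol lambs left of control lambs, and open diamonds for lambs with both arrays on the same slide. CDK2 is below 0 in 10 of 10 lambs, between -0.64 and -0.08, while the other genes lie on both sides of 0 and CDK1 and CCNA2 reach 2.91 and 2.03 in cortisol lamb 1.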

How the data were processed

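Arrays were single-colour (Cy3), and the processed spot intensity came from Agilent Feature Extraction 10.1.1.1, with background subtraction and detrending, per the file headers. Per the labels, 100 ng of total RNA was labelled. These deposited intensity values were not normalized between arrays, whose 75th percentile ran from 99.2 to 440.8. The deposited log2 value table, made by the authors with limma (version not given in the sources used here), served as an alternative only. Of 15008 probes, 1415 were named, for 877 genes, and names follow the sheep RefSeq table ARS-UI_Ramb_v3.0 or the files.

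Here log2 intensity minus the array's 75th percentile was tested with limma 3.58.1 (lmFit, eBayes, R 4.3.3), two-sided, with Benjamini-Hochberg adjustment over all probes well above background on at least 5 of 10 or 10 of 20 arrays. Outlier spots were left out. The script was tested on simulated data. Likeness is Pearson's r after group means were subtracted. Named genes were the 6 members with every probe, the 4 other cell cycle genes with the smallest unadjusted p in any cortisol comparison and the 4 with the smallest between regions, and the 3 genes most like each member, of which a few are not reported here. The members and lists were chosen with earlier results of these data known.

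Septum and LV arrays that share treatment and number were treated as 1 lamb, which the labels do not state. Their deviations from the group means had r between 0.45 and 0.813, and in 10 of 10 lambs the own partner correlated best. Otherwise nothing beyond the stated 5 ewes per group says how samples were drawn, and p-values measure only the spread between these samples. The number of arrays limits the precision.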

Additional observations from a re-analysis of the deposited data

Results flagged for a closer look

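A pair of values stood apart from the rest of their groups among 32 sets of 5 arrays checked for a sample far from the others, and chance alone flags about 1 in 20 such sets. The dimmer PCNA probe read -1.20 in LV of cortisol lamb 4, while the next highest array of that group read -2.13. The leading PCNA probe in the same array read 0.19 and lay within its group. The HMMR probe that was well above background on 2 of 20 arrays read -5.27 in septum of cortisol lamb 1, and the next highest array of that group read -6.67. That array was not well above background for this probe.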

How the results depend on the processing

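No cortisol comparison called a probe with any alternative run except the averaged comparison on slides 1 and 3 alone, which called 17. Septum against LV called 40 probes, and 63 with quantile normalization, 99 with no filter on dim probes, 79 with probes well above background on every array, 136 in control lambs alone, 0 in cortisol lambs alone, 1 with normexp, 0 with slide as a block, 0 on slide 2 alone, 2162 with lamb as a random replicate block and 1988 with lamb as a fixed one. Leaving out 1 lamb gave 2 (control 2, 3 or 4) to 289 calls (cortisol 5). Calls of the 6 genes changed only for CDK2 between regions, with the lamb block. Cortisol and control arrays of the same number shared only the number (3 of 5 septum pairs and 4 of 5 LV pairs correlated above 0.1), and a replicate block on it called 0 probes. The cause of these changes was not tested.

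The turned signs belonged to estimates that did not pass the test. CCND3 in LV was 0.14 with slide as a block, 0.04 on slide 2, 0.18 on slide 3, and -0.21 to 0.14 leaving out 1 array (positive without cortisol 3 or 4, or control 2). On septum slide 2 alone CDK2 was 0.23, PCNA 0.03 and HMMR -0.07. HMMR in septum was -0.14 to 0.24 leaving out 1 array (negative without cortisol 1, 2 or 3, or control 1, 3 or 5). Averaged over regions, CCND3 was 0.02 with slide as a block, 0.02 on slides 1 and 3 and 0.01 on slide 2, and HMMR was -0.26 to 0.07 leaving out 1 lamb (not negative without cortisol 5, or control 2 or 4). The septum cortisol effect minus the LV one was 0.15 for CDK2 with slide as a block. Leaving out 1 lamb it was -0.16 to 0.66 for CDK1 and -0.21 to 0.42 for CCNA2 (both negative without cortisol 1, CCNA2 also -0.02 without control 2), and 0.00 to 0.15 for PCNA. Septum minus LV with normexp was -0.04 for PCNA, -0.03 for CDK1 and -0.07 for HMMR. HMMR was -0.01 with quantile normalization, -0.16 in control lambs, -0.04 with lamb and slide together and -0.05 to 0.05 leaving out 1 lamb (not positive without cortisol 1 or 5, or control 4 or 5). CCND3 was -0.03 with slide as a block, -0.09 in cortisol lambs, -0.02 on slide 2 and -0.01 to 0.07 leaving out 1 lamb (not positive without cortisol 5 or control 3). PCNA in LV was 0.11 by its other probe. For CDK1 and CCNA2 signal near background limits the values.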
